A study of Mus musculus with 4 samples.

Results

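The genes described here encode matrix glycoproteins, proteoglycans, elastic fibre proteins and the enzymes that process and crosslink collagen. They were chosen by name, but with earlier results of these data known. Counts set against all genes therefore describe this list and are no independent support. The list held 42 genes, and a gene was measured when the array's annotation gave a probe set that symbol alone, the brightest standing for its gene. That held for 39 of the 42, out of 18193 measured genes. Expression of Fbn1, Efemp2 and Loxl2 was not analysed here.

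Glomeruli of male mice gave the total RNA that was hybridised to Affymetrix arrays, with 1 array for each of 4 groups. Wild-type mice (WT) and mice with a systemic knockout of GC-A, the natriuretic peptide receptor guanylyl cyclase A encoded by Npr1 (GC-A KO, written KO), each received either of 2 treatments. All mice in all 4 groups had undergone uninephrectomy, the removal of a kidney. Control mice (WT control, KO control) ate a normal diet and received 2% ethanol under the skin without interruption, and the others (WT ALDO, KO ALDO) received aldosterone the same way and ate a diet with 6% salt. The ALDO treatment lasted 3 weeks, and the length of the control treatment is not stated in the labels. The sources used here do not give age, strain or how many mice stood behind an array. The knockout was systemic, so differences between genotypes were not limited to a deletion in glomerular cells.

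The matrix of the glomerulus consists of the basement membrane under podocytes and endothelium and of the mesangial matrix that carries the capillary loops. Fibronectin, tenascins and thrombospondins link cells to this scaffold, small leucine-rich proteoglycans such as decorin and biglycan bind collagen fibrils and growth factors, and fibulins, emilins and microfibril proteins organise elastic fibres. Prolyl and lysyl hydroxylases, the collagen chaperone Serpinh1, the lysyl oxidases and transglutaminase 2 modify, fold and crosslink matrix proteins, and deposits of many of these proteins are a hallmark of glomerular and interstitial scarring.

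Values are deposited probe set intensities on a linear scale, and differences are those of log2(intensity + 16), on which 1 is 2-fold. Each group had a single array, so no test was made, no difference below could be set against a spread between mice, and "higher" or "lower" says only how 2 arrays differed. Having so few arrays limits the precision of what follows. Genes were counted when their mean log2 value over the 4 arrays placed them in the brighter 50% of all genes (9097 genes, with 8.04 as the lowest mean log2 value, near an intensity of 247). Of the 39 matrix genes 27 were in that brighter group and 12 were dimmer. Of the 27, 20 were above the limit on all 4 arrays, 5 on 3 arrays, Tnc on the 2 KO arrays and Thbs1 on KO ALDO alone. Over the 3 arrays other than KO ALDO, Tnc (7.88), Thbs1 (7.85) and Mfap2 (7.96) had mean log2 values below the limit, so these 3 entered the 27 through the array where they were highest. Mfap2 (mean log2 value 8.08) was the closest above the limit and Eln (7.63) the closest below. Probe sets differ in their response, so intensities are compared between arrays and not between genes.

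The arrays had similar overall signal, with a trimmed mean of 500.003 on each and medians between 89.5 and 103. All 12 measured podocyte markers were in the brighter 50% and so were all 12 proximal tubule markers, so the RNA also held tubular transcripts. Ranked by mean log2 value among all measured genes, the proximal tubule markers were at percentile 97.2 (Cubn) or above. The podocyte markers lay between percentiles 72.5 (Wt1) and 97.6 (Podxl). Probe sets differ in their response, so the share of tubular RNA was not measured. The matrix gene values need not come from glomerular cells alone. Npr1 was dim on every array (92.6 in WT control and 108 in KO control, with 60.5 in WT ALDO and 23.4 in KO ALDO), and since its probe set's place relative to the deletion is not given, it did not check the genotype labels. The ratio of 3' to 5' signal of beta-actin, a measure of RNA integrity, was 1.86 and 1.87 in WT control and WT ALDO against 1.67 and 1.61 in KO control and KO ALDO, so it moved with genotype, and its part in the results was not tested. The 21 Affymetrix control probe sets of added RNA were not divided by the step at which it was added. Their median difference was -0.16 for WT ALDO against WT control and -0.20 for KO ALDO against KO control, and within 0.05 of 0 between genotypes. The part of this shift in the ALDO comparisons was not tested.

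Across the 27 brighter matrix genes, the highest intensity was in KO ALDO for 22 (81.5%), against 33.5% of all genes of the brighter 50%. WT control was the dimmest array for 17 (63.0%), against 28.6% of all. KO ALDO was the dimmest array for 0 of the 27, against 30.2% of all. The exceptions to KO ALDO as the brightest array were Tnxb, Prelp and Fbln5, which were highest in WT ALDO, P4ha2, highest in KO control, and P4ha1, highest in WT control. With the 12 dimmer genes included, KO ALDO was brightest for 26 of 39 (66.7%), against 34.1% of all 18193 genes. With the limit applied to the mean of the other 3 arrays, a choice made after seeing the data, KO ALDO was brightest for 19 of 24 (79.2%), against 32.7% of 9025 genes. Of the 27, 8 had a second probe set in the brighter 50%. It gave the same direction for 5 of 8 in KO control against WT control, 7 in KO ALDO against WT ALDO, 5 for ALDO in WT and 7 for ALDO in KO.

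**Figure D1:**
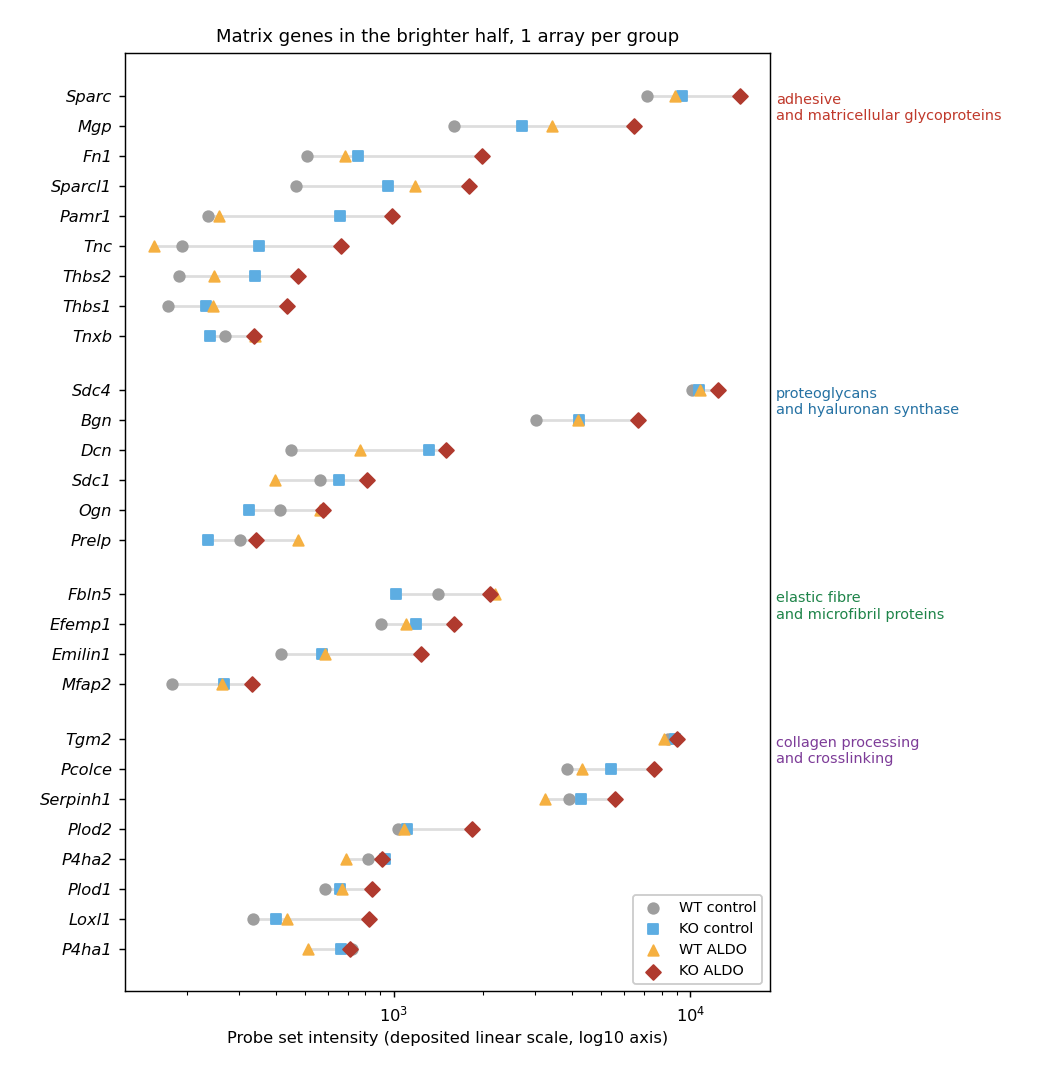
Intensity of each of the 27 matrix genes of the brighter 50% (rows, grouped by role) on a log10 axis, with 1 point for each of the 4 arrays and a grey line from the lowest to the highest. The KO ALDO diamond is the rightmost point for 22 of the 27 genes, and there are no error bars because each group had 1 array.

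The genotypes were first compared under control treatment, to see how matrix genes differed without added aldosterone and salt. In KO control 22 of the 27 genes were above their WT control value, with a median log2 difference of 0.38, where 49.7% of all genes of the brighter 50% were above 0 and their median was 0.00. Without Tnc, Thbs1 and Mfap2 the median was 0.23, with 19 of 24 above 0. Dcn (1.52) and Pamr1 (1.42) were 2-fold or more higher, 2 of 27 against 0.967% of all genes, and 0 of 27 were 2-fold or more lower, against 0.176%. Sparcl1, at intensities of 469 and 953, was just under 2-fold. The 5 genes below 0 were Fbln5 (-0.46), Prelp (-0.35), Ogn (-0.33), Tnxb (-0.16) and P4ha1 (-0.12). Over all 39 genes 28 were above 0 with a median of 0.21, against 53.1% and 0.02 for all 18193, and 3 were 2-fold or more higher and 0 lower, against 4.44% and 2.46% of all 18193.

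Under ALDO the genotype differences were larger for most of the same genes. In KO ALDO 24 of 27 were above WT ALDO, with a median of 0.73, against 51.3% and 0.01 for all genes. Tnc, Thbs1 (0.79) and Mfap2 (0.31), which passed the signal limit through KO ALDO, were among these 24. The genes 2-fold or more higher were Tnc (1.99), Pamr1 (1.87), Fn1 (1.51), Emilin1 (1.05) and Sdc1 (1.0), 5 of 27 against 1.26% of all genes, and 0 of 27 were 2-fold lower, against 0.352%. With the limit on the arrays other than KO ALDO, Tnc is left out, and 1.16% of 9025 genes were 2-fold or more higher. Prelp (-0.45), Fbln5 (-0.05) and Tnxb (-0.02) were below 0. Emilin1 and Sdc1 were close to the limit and fell under it when each array was centred on its median (0.91 and 0.86) or with a pseudocount of 64, where Emilin1 was just under 2-fold and Sdc1 was 0.93. Over all 39 genes 32 were above 0 with a median of 0.60, against 55.4% and 0.04 for all 18193, and 7 were 2-fold or more higher and 0 lower, against 4.72% and 2.34%.

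These genotype comparisons share no array. Higher in KO under both treatments were 22 of the 27 genes (81.5%), against 34.8% of all genes of the brighter 50%. Lower under both were Tnxb, Prelp and Fbln5, 3 of 27 (11.1%) against 33.8% of all. Pamr1 alone of the 27 was 2-fold or more higher under both, against 49 of all 9097 genes of the brighter 50%. The ALDO difference exceeded the control difference for 23 of the 27 (85.2%), against 50.6% of all genes. The 4 others were Dcn, Sparcl1, Mfap2 and Prelp. Tnc and Thbs1, which passed the signal limit through KO ALDO, are among both the 22 and the 23. Mfap2, which passed it the same way, is among the 22. These counts without them are not given.

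**Figure D2:**
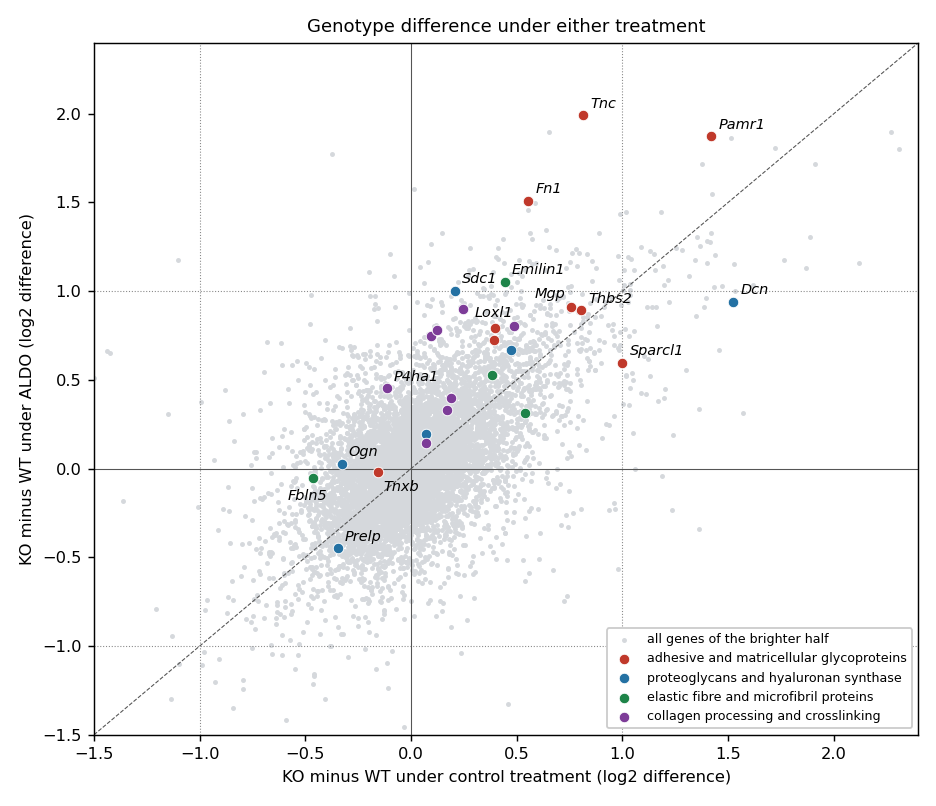
Log2 difference of KO minus WT under control treatment (horizontal axis) and under ALDO (vertical axis), with a coloured point for each of the 27 matrix genes by role and grey points for all genes of the brighter 50% (12 lie outside the axes). Dotted lines mark 2-fold and the dashed line equal differences: 23 of the 27 lie above the dashed line, Tnc, Pamr1 and Fn1 highest, and Dcn lies to its right.

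Aldosterone with salt was then compared with the control treatment inside each genotype. In WT 21 of the 27 genes were higher under ALDO, with a median of 0.33, against 51.9% and 0.01 for all genes. Sparcl1 (1.30) and Mgp (1.09) were 2-fold or more higher, 2 of 27 against 0.33% of all genes, with 0 of 27 lower by that much, against 0.352%. Below 0 stood Sdc1 (-0.49), P4ha1 (-0.48), Tnc (-0.28), Serpinh1 (-0.27), P4ha2 (-0.24) and Tgm2 (-0.05), of which 4 process or crosslink collagen or other matrix proteins. The genes of collagen processing and crosslinking had a median of 0.01 here, with 4 above and 4 below 0. Over all 39 genes 29 were above 0, against 51.8% of all 18193, and 3 were 2-fold or more higher and 0 lower, against 3.4% and 2.59%.

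In KO mice 26 of the 27 genes were higher under ALDO, with a median of 0.52, against 52.3% and 0.01 for all genes. Fn1 (1.37), Mgp (1.25), Emilin1 (1.08), Fbln5 (1.04) and Loxl1 (1.02) were 2-fold or more higher, 5 of 27 against 0.572% of all genes, and 0 of 27 were 2-fold lower, against 0.132%. Tnc (0.89), Thbs1 (0.86) and Mfap2 (0.30), which passed the signal limit through KO ALDO, were among the 26. None of them is among the 5, and with the limit on the other arrays the share of all genes was 0.532% of 9025. Only P4ha2, at -0.03, was below 0. Fbln5 and Loxl1 were just under 2-fold (0.98 and 0.95) when each array was centred on its median. Over all 39 genes 32 were above 0, against 53.8% of all 18193, and 5 were 2-fold or more higher and 0 lower, against 3.83% and 2.3%.

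The comparisons in WT and in KO share no array either. Higher under ALDO in both were 21 of the 27 (77.8%), against 33.2% of all genes, and Mgp was the 1 gene 2-fold or more higher in both. The difference between the ALDO effects, KO minus WT, was above 0 for 23 of the 27, with a median of 0.32, against 50.6% and 0.00 for all genes. By arithmetic it equals the genotype difference under ALDO minus that under control treatment. These 23 are therefore the genes already counted above and not a second result. Tnc (1.18) was 2-fold or more above 0, 1 of 27 against 0.594% of all genes, and 0 of 24 with the limit on the other 3 arrays, which leaves Tnc out. Fn1 (0.96), Sdc1 (0.80), Serpinh1 (0.66), Plod2 (0.65), Loxl1 (0.65) and Emilin1 (0.61) followed. The 4 below 0 were Dcn (-0.58), Sparcl1 (-0.40), Mfap2 (-0.23) and Prelp (-0.10), and 0 of 27 were below by 2-fold, against 0.33%. Over all 39 genes 1 was 2-fold or more above 0 and 1, Lum (-1.11), below it, against 5.87% and 5.14% of all 18193 genes.

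**Figure D3:**
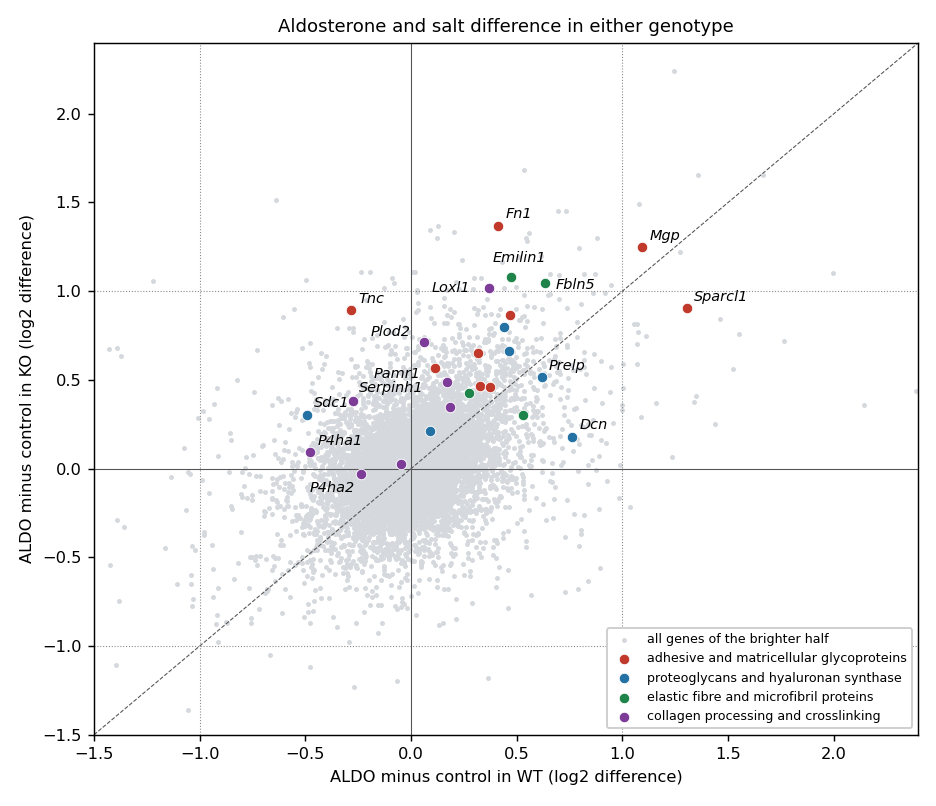
Log2 difference of ALDO minus control in WT (horizontal axis) and in KO (vertical axis), with a coloured point for each of the 27 matrix genes by role and grey points for all genes of the brighter 50% (9 lie outside the axes). Dotted lines mark 2-fold: Fn1, Emilin1, Fbln5, Loxl1 and Mgp lie above the upper one, and Tnc, Sdc1, Serpinh1 and P4ha1 lie left of 0 in WT and above 0 in KO.

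Centring each array on its median lowered the median of all genes of the brighter 50% to -0.11 between genotypes under control treatment and to -0.13 under ALDO, since KO arrays had the higher medians. Of the 27 genes, 19 and 23 were then above 0, with medians of 0.27 and 0.58. Sdc4, Tgm2 and Plod2 turned slightly negative in KO control (-0.04, -0.04 and -0.01), Ogn turned negative in KO ALDO against WT ALDO (-0.11, and -0.07 with quantile normalization), and Tgm2 in KO ALDO against KO control (-0.04). All genes 2-fold apart were then split into 62 higher and 25 lower under control treatment and 70 higher and 52 lower under ALDO, in place of 88 and 16 and of 115 and 32.

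Among the adhesive and matricellular glycoproteins, 9 of 11 were in the brighter 50% and 8 of these 9 were brightest in KO ALDO. Their medians were 0.75 for KO control against WT control, 0.89 for KO ALDO against WT ALDO, 0.37 for ALDO in WT and 0.86 for ALDO in KO. All 9 were above 0 in the last comparison. Tnc and Thbs1, which passed the signal limit through KO ALDO, are among the 9, and medians without them are not given. The median of 0.86 for ALDO in KO is the value of Thbs1 itself. Besides Tnc, Fn1 (1.37), Mgp (1.25) and Sparcl1 (0.90) were above it in that comparison. Sparc (0.65), Pamr1 (0.57), Thbs2 (0.46) and Tnxb (0.46) were below it.

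Tnc encodes tenascin C, a large hexameric glycoprotein made at sites of tissue remodelling. Its intensity was 193 in WT control and 350 in KO control, with 155 in WT ALDO and 665 in KO ALDO. Both KO arrays were above both WT arrays, WT ALDO was the lowest and KO ALDO was 3.97-fold above it. On the control treatment the genotypes differed by 1.76-fold. A further, dim probe set had 5.28, 29.6, 14.6 and 60.8 in the same order of arrays, again with both KO arrays above both WT arrays, and with it the difference between the ALDO effects was 0.23.

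Fn1 encodes fibronectin, which binds integrins, collagen and fibrin and is assembled into fibrils by cells. It read 511 in WT control and 757 in KO control, with 685 in WT ALDO and 1980.3 in KO ALDO. The first 3 arrays lay close together and KO ALDO was 2.85-fold above WT ALDO and 2.58-fold above KO control. The second probe set of Fn1 was dim and gave smaller values, 0.88 for KO ALDO against WT ALDO and 0.43 for KO ALDO against KO control, and its WT ALDO value lay below WT control (-0.21). Pamr1, which encodes a secreted protein with a peptidase-like domain, read 236 in WT control and 658 in KO control, with 257 in WT ALDO and 984 in KO ALDO. Here the arrays separated by genotype, by 2.67-fold under control treatment and 3.67-fold under ALDO, while ALDO in WT differed from control by 1.08-fold.

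Sparcl1 and Mgp showed another order, with WT ALDO above KO control. Sparcl1, a relative of Sparc that is also known as hevin, had 469 in WT control and 953 in KO control, with 1182 in WT ALDO and 1796.5 in KO ALDO. Mgp encodes matrix Gla protein, an inhibitor of calcification in vessel walls, and had 1592 in WT control and 2697 in KO control, with 3412.5 in WT ALDO and 6436 in KO ALDO. Its ALDO folds were alike in the genotypes, 2.13 in WT and 2.38 in KO.

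Sparc encodes a collagen-binding glycoprotein and was among the brightest of the set, at 7156 in WT control and 9385 in KO control, with 8911 in WT ALDO and 14749 in KO ALDO. A second bright probe set of Sparc gave 0.76 for KO ALDO against WT ALDO, beside 0.73 for the first. Thbs1, which encodes thrombospondin 1, an activator of latent TGF-beta, had 173 in WT control and 233 in KO control, with 246.0 in WT ALDO and 438 in KO ALDO. Thbs2, its close relative, had 188, 340, 248 and 475 in that order. Both were highest in KO ALDO, and for Thbs2 both KO arrays were above both WT arrays. The second probe sets gave smaller values for KO ALDO against WT ALDO, 0.50 for Thbs1 and 0.31 for Thbs2. For ALDO in WT and KO the second probe set of Thbs1 gave -0.07 and 0.03, beside 0.47 and 0.86 for the first. That of Thbs2 gave 0.42 and 0.02, beside 0.37 and 0.46.

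Tnxb, which encodes tenascin X, was the exception in this group. It had 269 in WT control and 239.5 in KO control, with 341 in WT ALDO and 337 in KO ALDO, so it differed between treatments and hardly between genotypes. Postn (periostin) and Matn2 (matrilin 2) were dim. Postn had 33.2 in WT control and 69.9 in KO control, with 86.2 in WT ALDO and 142 in KO ALDO, so it was below the limit on every array, and Matn2 lay between 59.3 and 124.

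The 300 bases around the start site are shown for Tnc and Thbs2, in which both KO arrays were above both WT arrays. They are also shown for Emilin1, which was over 2-fold higher under ALDO in KO. These are examples that hold the marked letters, and other genes with the same orders did not. Pcolce also had both KO arrays above both WT arrays, and its promoter held no TATAAA. Fbln5 was also over 2-fold higher under ALDO in KO, and its promoter held no TGTTCT. Each sequence runs 5' to 3' on the gene's strand from 250 bases before to 50 after a start site, from RefSeq on GRCm38.p6, and capitals mark the letters TATAAA in Tnc and Thbs2 and TGTTCT in Emilin1, each on either strand. Tnc is at chr4:64046887-64047186 (minus strand), Thbs2 at chr17:14694213-14694512 (minus strand) and Emilin1 at chr5:30913536-30913835 (plus strand).
Tnc: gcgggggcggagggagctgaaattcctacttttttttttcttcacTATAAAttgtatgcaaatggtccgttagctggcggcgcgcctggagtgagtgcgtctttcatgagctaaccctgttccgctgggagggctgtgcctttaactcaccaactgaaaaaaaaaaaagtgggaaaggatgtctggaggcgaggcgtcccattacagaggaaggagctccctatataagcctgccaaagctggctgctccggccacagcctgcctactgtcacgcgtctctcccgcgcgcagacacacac
Thbs2: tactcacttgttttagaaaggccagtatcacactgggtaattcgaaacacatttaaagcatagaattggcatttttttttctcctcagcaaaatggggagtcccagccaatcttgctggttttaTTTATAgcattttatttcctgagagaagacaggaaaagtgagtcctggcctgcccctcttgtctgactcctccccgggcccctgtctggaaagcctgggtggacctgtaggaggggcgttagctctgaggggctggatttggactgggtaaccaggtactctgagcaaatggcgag
Emilin1: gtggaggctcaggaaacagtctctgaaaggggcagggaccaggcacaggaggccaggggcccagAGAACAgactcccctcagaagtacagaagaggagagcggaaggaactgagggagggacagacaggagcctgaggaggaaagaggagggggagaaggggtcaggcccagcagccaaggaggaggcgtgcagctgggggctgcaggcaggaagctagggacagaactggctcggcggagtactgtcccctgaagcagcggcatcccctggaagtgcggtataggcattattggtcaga
In Tnc the match begins 205 bases before this start site, 1 of 2 listed for the gene. Capitals mark exact matches only and do not say which letters act as a TATA box. The similar letters TATATAAG, left in lower case, lie closer to this Tnc start site. Thbs2 holds it on the other strand, as TTTATA, 126 bases before the start, and Emilin1 holds AGAACA, the other strand's reading of TGTTCT, 186 bases before it.

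Of the 42 listed genes, 25 had a promoter of this length in the table, Fbn1 and Efemp2 among them, and 6 of them (24.0%) held TATAAA, against 15.7% of 27025 genes with a promoter there. TGTTCT, an arm of the palindrome that corticosteroid receptors bind, was in 6 of 25 (24.0%), against 21.3%. CACCC, a motif of the KLF family, was in 21 of 25 (84.0%), against 59.8%. TGANTCA, the AP-1 motif, was in 2 of 25 (8.0%), against 8.97%, and CATTCC, the TEAD motif, in 2 (8.0%), against 16.6%. The SMAD palindrome GTCTAGAC was in 0 of 25, against 0.248%. Both strands were searched and the motifs do not contain each other; matches of different motifs were counted separately.

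Proteoglycans were divided. Of 10 genes 6 were in the brighter 50%, 5 of them brightest in KO ALDO, and the medians were 0.14 and 0.43 for KO against WT under control treatment and ALDO, and 0.45 and 0.41 for ALDO in WT and KO. Decorin (Dcn), a small leucine-rich proteoglycan that binds collagen fibrils and TGF-beta, had 448 in WT control and 1318 in KO control, with 771 in WT ALDO and 1495 in KO ALDO. The lowest array was WT control, and KO control was nearly as high as KO ALDO. The fold between genotypes was 2.87 under control treatment and 1.92 under ALDO, and ALDO differed from control by 1.70-fold in WT and 1.13-fold in KO. A second probe set of Dcn was near the lowest values of the arrays (2.92 to 4.86) and gave no readable difference.

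Lumican (Lum), of the same family, was dim on both WT arrays, with 22.1 in WT control and 259 in KO control, with 36.2 in WT ALDO and 158 in KO ALDO. The KO arrays were above the WT arrays under either treatment, by log2 differences of 2.85 and 1.74, and both WT values lay below their arrays' medians. Lum and Dcn had in common that KO control was well above WT ALDO.

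Biglycan (Bgn) was bright and had 3025 in WT control and 4201 in KO control, with 4177 in WT ALDO and 6659 in KO ALDO. KO control and WT ALDO were nearly equal and KO ALDO stood above both, with log2 differences of 0.67 between genotypes under ALDO and 0.66 for ALDO in KO. Its 3 probe sets gave 0.59 to 0.67 for KO ALDO against WT ALDO. Osteoglycin (Ogn) and Prelp, are further leucine-rich members, and both were lower in KO control than in WT control. Ogn had 412 in WT control and 325 in KO control, with 565 in WT ALDO and 576 in KO ALDO. Prelp had 304 in WT control and 236 in KO control, with 475 in WT ALDO and 344 in KO ALDO. Under ALDO the genotypes were nearly equal for Ogn (0.03), and Prelp was lower in KO (-0.45). KO control was the lowest array for both, and both ALDO arrays were above both control arrays. Fmod (fibromodulin) was dim, between 102 and 153, with its highest value in WT control.

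Syndecans are membrane-bound heparan sulfate proteoglycans of cells. Sdc1 had 564 in WT control and 653.5 in KO control, with 396 in WT ALDO and 810.5 in KO ALDO, so ALDO went with a lower value in WT and a higher one in KO. The probe set shown for Sdc1 belongs to a class whose probes may match other transcripts (suffix _x_at), and the next-brightest gave 0.51 in place of 1.0 for KO ALDO against WT ALDO. Sdc4 was bright and nearly flat, with 10167 in WT control and 10684 in KO control, with 10811 in WT ALDO and 12376 in KO ALDO. Vcan (versican) and the hyaluronan synthase Has2 were dim on all arrays, with at most 43.3 and 30.1.

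Elastic fibre and microfibril genes had 9 measured members, of which 4 were in the brighter 50%, with Mfap2 there only through KO ALDO. Their medians were 0.41 and 0.42 for KO against WT under control treatment and ALDO, and 0.50 and 0.73 for ALDO in WT and KO, and all 4 were higher under ALDO in both genotypes. Emilin1, an elastic fibre glycoprotein that limits TGF-beta maturation, had 418 in WT control and 574 in KO control, with 585 in WT ALDO and 1232 in KO ALDO. The KO control and WT ALDO arrays were alike and KO ALDO was 2.08-fold above WT ALDO and 2.12-fold above KO control. A second, dimmer probe set of Emilin1 (22.5, 166.5, 27.4 and 282 in the usual order) separated the arrays by genotype. Its genotype differences were 2.25 under control treatment and 2.78 under ALDO, beside 0.44 and 1.05 for the first. The probe sets thus disagreed on the size of the genotype difference under both treatments. For ALDO in KO the second gave 0.71 beside 1.08.

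Fibulin 5 (Fbln5), which is needed to assemble elastic fibres, had 1405 in WT control and 1015 in KO control, with 2189 in WT ALDO and 2110.0 in KO ALDO. Treatment separated the arrays, with KO control the lowest and the ALDO arrays nearly equal, and the ALDO folds were 1.55 in WT and 2.06 in KO. Efemp1, or fibulin 3, had 908 in WT control and 1187 in KO control, with 1102 in WT ALDO and 1598 in KO ALDO. Mfap2, a microfibril glycoprotein, had 178 in WT control and 266.5 in KO control, with 264 in WT ALDO and 332 in KO ALDO. Both were lowest in WT control and highest in KO ALDO.

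Elastin itself (Eln) was below the limit and flat, between 166 in WT control and 192 in KO control. Fbln1 (72.2 to 92.3), Mfap5 (23.8 to 47.0) and Mfap4 (2.58 to 4.39) were dim too. Fbln2 had 125.5 in WT control and 126 in KO control, with 142 in WT ALDO and 245 in KO ALDO, so KO ALDO stood alone on a dim probe set.

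Genes of collagen processing and crosslinking differed between genotypes mostly under ALDO. Their medians, over the 8 in the brighter 50%, were 0.15 for KO control against WT control and 0.60 for KO ALDO against WT ALDO, and 0.01 and 0.36 for ALDO in WT and KO. All 8 were higher in KO ALDO than in WT ALDO, and for all 8 the ALDO effect was larger in KO than in WT, with a median difference of 0.44. For 4 of the 8 WT ALDO was the dimmest array.

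Serpinh1 (HSP47), the chaperone of procollagen in the endoplasmic reticulum, had 3910.2 in WT control and 4264 in KO control, with 3231 in WT ALDO and 5557 in KO ALDO. WT ALDO was the lowest array and KO ALDO the highest, 1.72-fold apart. Its second bright probe set gave 0.71 for KO ALDO against WT ALDO, near the 0.78 of the first, but 0.07 in place of -0.27 for ALDO in WT. Plod2, a lysyl hydroxylase that acts on collagen telopeptides, had 1037 in WT control and 1109 in KO control, with 1084 in WT ALDO and 1832 in KO ALDO. Only KO ALDO stood apart, and a second bright probe set gave 0.62 beside 0.75 for KO ALDO against WT ALDO, but -0.26 beside 0.10 for KO control against WT control and -0.22 beside 0.06 for ALDO in WT. Plod1, which acts on the collagen helix, had 584 in WT control and 659 in KO control, with 667 in WT ALDO and 843 in KO ALDO.

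P4ha1 and P4ha2 encode the catalytic subunits of prolyl 4-hydroxylases. P4ha1 had 721 in WT control and 664 in KO control, with 514 in WT ALDO and 709 in KO ALDO, and P4ha2 had 819, 935, 691.5 and 915 in the same order. WT ALDO was the lowest array for both.

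Loxl1, a lysyl oxidase tied to elastic fibres, had 334 in WT control and 399.5 in KO control, with 436 in WT ALDO and 825 in KO ALDO. KO ALDO was 1.86-fold above WT ALDO and 2.03-fold above KO control. Lox, which crosslinks collagen and elastin, was below the limit on average, with 86.1 in WT control and 159 in KO control, with 135 in WT ALDO and 303 in KO ALDO. Its order of arrays was that of Fn1, with KO ALDO highest, and its differences of 1.08 between genotypes under ALDO and 0.87 for ALDO in KO come from a dim probe set. The next-brightest probe set of Lox gave 0.65 and 1.15 for these, and -0.23 in place of 0.77 for KO control against WT control.

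Pcolce, an enhancer of procollagen C-proteinase, had 3847.5 in WT control and 5390.5 in KO control, with 4329 in WT ALDO and 7568 in KO ALDO. Both KO arrays were above both WT arrays, and a second bright probe set gave 0.89 beside 0.80 for KO ALDO against WT ALDO. Tgm2, which crosslinks glutamine to lysine side chains, was bright and nearly flat, with 8443 in WT control and 8876 in KO control, with 8177 in WT ALDO and 9053 in KO ALDO.

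**Figure D4:**
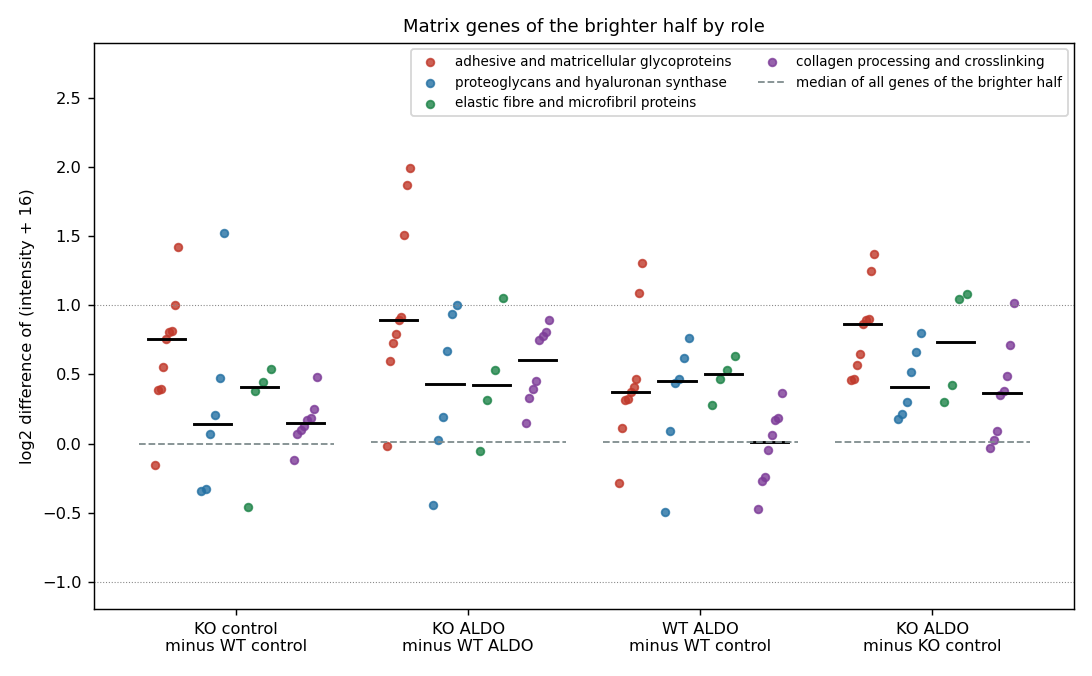
Log2 differences of the 27 matrix genes of the brighter 50% in the 4 comparisons (horizontal axis), 1 point per gene coloured by role, with black bars for the median of a role and dashed lines for the median of all genes of the brighter 50%. The adhesive glycoproteins had the highest medians between genotypes (0.75 and 0.89), and the collagen processing genes moved from 0.01 for ALDO in WT to 0.36 for ALDO in KO.

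The 12 dimmer genes were divided. They had medians of -0.02 for KO control against WT control, 0.16 for KO ALDO against WT ALDO, 0.17 for ALDO in WT and 0.03 for ALDO in KO, with 6, 8, 8 and 6 of 12 above 0. Of all 18193 genes, 53.1%, 55.4%, 51.8% and 53.8% were above 0 in that order. Lum and Lox were 2-fold or more higher in KO ALDO than in WT ALDO, 2 of 12 against 4.72% of all 18193 genes. The share among dimmer genes alone is not given. Postn and Lox had the order of most of the 27, lowest in WT control and highest in KO ALDO, and Fbln2 and Matn2 were also brightest in KO ALDO.

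A wider list of 98 matrix genes outside the 42 was read the same way, and 92 had a probe set and 40 were in the brighter 50%. Of these 40, 28 were above 0 for KO control against WT control (median 0.18), 28 for KO ALDO against WT ALDO (0.31), 30 for ALDO in WT (0.19) and 33 for ALDO in KO (0.19). For the difference between the ALDO effects 24 of 40 were above 0, with a median of 0.07, beside 23 of 27 and 0.32 for the genes above. The shares of all genes of the brighter 50% above 0 were 49.7%, 51.3%, 51.9% and 52.3% in the first 4 and 50.6% in the last. In the first 4, 1, 2, 0 and 2 of the 40 were 2-fold or more higher, against 0.967%, 1.26%, 0.33% and 0.572% of all genes, and 0 were 2-fold lower.

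Among these 40, the highest in KO control against WT control were Tgfbi (1.01), a TGF-beta-induced adhesion protein, the glypican Gpc1 (0.84) and Adamtsl4 (0.67), and the lowest were Omd (-0.59), Spon1 (-0.30) and Sec31a (-0.23). Under ALDO Ccn1 (1.57), a matricellular protein induced by growth factors, Tgfbi (1.03) and the pericyte proteoglycan Cspg4 (0.93) were highest in KO, and Gpc4 (-0.39), Gpc3 (-0.36) and Omd (-0.31) lowest. For ALDO in WT, Ecm1 (0.92), Gpc3 (0.85) and Esm1 (0.84) were highest and Ccn1 (-0.50), P3h2 (-0.20) and Omd (-0.12) lowest. For ALDO in KO, Cspg4 (1.11), Ccn1 (1.06) and Ecm1 (0.99) were highest and Gpc4 (-0.20), Ltbp3 (-0.17) and Tgm1 (-0.17) lowest. Ccn1 had 837.5 in WT control and 846 in KO control, with 588 in WT ALDO and 1782 in KO ALDO, an order with WT ALDO lowest and KO ALDO highest that it shares with Tnc, Sdc1, Serpinh1 and Tgm2. Some of the 52 dimmer genes of the wider list lay further out, and they are named here after their values were seen. Cd44, a hyaluronan receptor just below the limit, had 108 in WT control and 342.5 in KO control, with 123 in WT ALDO and 692.5 in KO ALDO, differences of 1.54 and 2.35 between genotypes. Ltbp2, a latent TGF-beta binding protein, had 48.3 and 142 under control treatment and 20.7 and 166.5 under ALDO. Both separated the arrays by genotype.

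Collagens, the fibrils on which many of these proteins act, had 17 of 42 genes in the brighter 50%, and KO ALDO was the brightest array for 16 of the 17. Their medians were 0.36 and 0.63 between genotypes under control treatment and ALDO and 0.19 and 0.60 for ALDO in WT and KO. Laminins and nidogens had 8 in the brighter 50%, with medians of 0.04, 0.26, 0.14 and 0.20 in that order, and KO ALDO was brightest for 5.

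The summed markers of cell types that make matrix were also highest in KO ALDO. In bulk RNA a larger number of cells of a type and more RNA per cell cannot be told apart. The summed intensity of 11 of 11 fibroblast markers was 6782 in WT control and 8818 in KO control, with 8149 in WT ALDO and 14427 in KO ALDO, and 6 of the 11 were in the brighter 50%. KO ALDO was the brightest array for 8 of the 11, and Clec3b, Serpinf1 and Entpd2 were brightest in KO control. The collagens Col1a1, Col1a2 and Col3a1, which are matrix genes themselves, made up 3179.5, 4364, 3794 and 7960.4 of these sums, and without them the sums were 3603, 4454, 4355 and 6467. Of these, Cd34 made up 1113, 1442, 1305 and 2552 and Pi16 1131, 1500.5, 1492 and 2091. The other fibroblast markers that are not collagens were each below both on every array. For smooth muscle and pericyte markers (12 of 12 measured) the sums were 14541, 16548, 20090.4 and 27986, and for mesangial markers (6 of 9 measured) 8750.1, 10713, 9731 and 13329. KO ALDO was brightest for 10 of the 12 smooth muscle and pericyte markers, with Myh11 and Lmod1 highest in WT ALDO, and for 4 of the 6 mesangial markers, with Ptn and Art3 highest in KO control. Endothelial markers (13 of 13) had 21761, 28222, 26558 and 37446.5, and podocyte markers (12 of 15) 33666, 33493, 36588 and 41009, with KO ALDO brightest for 12 of 13 and 8 of 12.

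Macrophage and monocyte markers (16 of 16) separated the arrays by genotype, at 7280 in WT control and 14273 in KO control, with 7106.5 in WT ALDO and 15943 in KO ALDO. Proximal tubule markers (12 of 12) ran the other way, at 258128, 243858, 250940 and 230445, while distal nephron and collecting duct markers (12 of 12) had 79939, 86364.5, 85829 and 93494. Parietal epithelial markers (9 of 10) had 16316, 21259, 16537 and 21996. Of 6 measured neutrophil markers 5 were dim, and KO ALDO was brightest for 2. S100a8 had 383 in WT control and 462 in KO control, with 34.5 in WT ALDO and 533 in KO ALDO, and S100a9 had 320, 468, 4.50 and 453, so both were lowest in WT ALDO. The neutrophil gene Mpo had 12.3, 46.5, 29.8 and 6.39 and was lowest in KO ALDO. None of the measured markers was listed at 0 on any array. The part of these markers in the matrix gene differences was not tested.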

How the data were processed

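Each of the 4 groups had 1 array, grouped by sample title. The authors deposited a linear intensity for each probe set of each array. Affymetrix Expression Console is named in the submitters' processing notes, and the sources used here do not give its algorithm, version or detection calls. The mean without the highest and lowest 2% was the same on each array, which points to scaling to a common level, and a shift shared by most transcripts could not be seen. Of 45101 probe sets 34958 had 1 gene symbol in the platform annotation, 932 several and 9211 none listed; 64 Affymetrix control probe sets were left out. Entrez identifiers were checked against a RefSeq table of GRCm38.p6, through which 0 symbols changed.

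Differences were taken of log2(intensity + 16), which understates changes of dim genes, on the probe set with the highest mean log2 value per gene, in the brighter 50% of genes. With 1 array per group no test, p-value or error was computed, and 2-fold or more was counted. Named were genes 2-fold or more apart in any comparison, the highest and lowest of each role, and Fn1, Tnc, Dcn, Lox and Serpinh1; the remaining genes of the set were also given by array. Of the wider list, the 3 highest and 3 lowest were named per comparison.

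The genes of the set and all lists, including the marker lists, were chosen with earlier results of these data known. Alternatives were pseudocounts of 1 and 64, no signal filter, the brightest 25% of genes, quantile normalization, median centring, the mean of all probe sets of a gene, its second-brightest probe set and, added after seeing the data, the signal limit on the 3 arrays other than KO ALDO. The steps were tested on simulated data. Python 3.11.15, pandas 2.3.3, numpy 2.4.6, scipy 1.17.1 and matplotlib 3.10.9 were used.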

Additional observations from a re-analysis of the deposited data

Results flagged for a closer look

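These genes had ALDO or genotype differences of opposite sign in the groups compared, each from 1 array per group, so the opposition was not tested. Values are log2 differences. For ALDO against control, Tnc was -0.28 in WT and 0.89 in KO, a difference of 1.18. Sdc1 was -0.49 in WT and 0.30 in KO, a difference of 0.80. Serpinh1 was -0.27 in WT and 0.38 in KO, a difference of 0.66. P4ha1 was -0.48 in WT and 0.09 in KO, a difference of 0.57. Tgm2 was -0.05 in WT and 0.03 in KO, a difference of 0.0746 that is small beside those of the others. For KO against WT, P4ha1 was -0.12 under control treatment and 0.45 under ALDO, which is the same difference of 0.57, and Ogn was -0.33 and 0.03, a difference of 0.36. With the second-brightest probe set Tnc was 0.53 in WT and Serpinh1 was 0.07 in WT, P4ha1 was -0.70 in WT and -0.37 in KO and Tgm2 was -0.05 and -0.03, so none of the 4 had opposite signs there. For KO against WT the second-brightest probe set of P4ha1 gave 0.17 under control treatment and 0.50 under ALDO, again of the same sign, while Sdc1 (-0.12 and 0.30 for ALDO) and Ogn (-0.03 and 0.08 for KO against WT) kept opposite signs.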

How the results depend on the processing

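With 1 array per group, leaving out a replicate was not possible, and no paired analysis was possible because each group has a single array. A count was taken as moved when it changed by over 1.5 times, and a log2 value when it shifted by over 1.5-fold. Of 135 medians and counts recomputed, 115 kept to these limits, all 45 medians among them, and all 45 medians stayed above 0. With the signal limit on the 3 arrays other than KO ALDO, added after seeing the data, 0 of 24 genes were past 2-fold for the difference between ALDO effects, in place of 1. Of all genes, 0.532% were 2-fold or more above 0 there. A pseudocount of 64 gave 3 of 27 genes 2-fold higher in KO ALDO against WT ALDO, in place of 5, against 0.967% of all genes in place of 1.26%. Median centring gave 3 there and 3 in KO ALDO against KO control, in place of 5 and 5. The shares of all genes were then 0.769% and 0.418%, in place of 1.26% and 0.572%. Averaging a gene's probe sets gave 3 genes 2-fold higher in KO ALDO against KO control, 1 lower in KO control against WT control, and 0 past 2-fold for the difference between ALDO effects. Of all genes, 0.517% were higher in the first and 0.275% lower in the second, and 0.813% were 2-fold above 0 for the difference. Without the signal filter 1 of 39 was 2-fold below 0 for that difference, in place of 0, against 5.14% of all genes. Among the brightest 25% of genes, which held 11 of the set, the counts higher were 0 and 0 between genotypes under control treatment and ALDO, 2 for ALDO in KO and 0 for the difference between effects. The shares of all genes in that order were 0.572%, 0.769%, 0.44% and 0.264%, and fewer genes were counted there. The second-brightest probe set, which 21 of the 27 have, gave 2 higher and 1 lower in KO ALDO against WT ALDO, 1 lower in KO control against WT control, 0 higher for ALDO in WT, 2 higher and 1 lower for ALDO in KO, and 2 higher and 1 lower for the difference between effects. On these probe sets 2.42% of 5903 genes were 2-fold higher and 1.39% lower in KO ALDO against WT ALDO, 1.85% lower in KO control against WT control, 1.91% higher for ALDO in WT, 2.47% higher and 1.34% lower for ALDO in KO, and 4.1% and 2.68% for the difference between effects. It turned Dcn from 1.52 to -0.10 in KO control against WT control, on a probe set near the lowest values of the arrays. The mean of all probe sets, which includes it, gave Dcn 0.71, and it gave Fn1 0.90 and Emilin1 0.89 in KO ALDO against KO control and Tnc 0.70 for the difference between effects. Where a cause is not named here, it was not tested. No detection calls were used, so how far the 12 dim genes lay above background is unknown.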
